A study of Mus musculus with 24 samples.

Results

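The sinusoidal endothelial markers were 10 genes, Stab1, Stab2, Lyve1, Clec4g, Fcgr2b, Kdr, Pecam1, Tek, Eng and Oit3, taken as a list of names with earlier results of these data known. All 10 were found among the 19938 mouse genes that the array annotation tied to at least 1 probe set with a single gene symbol (21789 of 35556 probe sets, with 1621 carrying several symbols and 12146 none). Each gene was read from its single-symbol probe set with the highest mean over all 24 arrays. Clec4g had 2 such probe sets and the other genes 1 each.

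Liver RNA of 24 male mice aged 24 weeks was measured on 1 Affymetrix Mouse Gene 1.0 ST array per mouse, 8 arrays per genotype. The control mice were C57Bl6 without a transgene. On that background, alb-SREBP-1a mice express human SREBP-1a as its N-terminal domain, the part that acts as a transcription factor, while the transgene of alb-SREBP-1a∆P mice is this domain without its phosphorylation sites for MAP kinases. In both lines the albumin promoter, which is active in hepatocytes, drives the transgene, and all mice were fed regular chow. Differences between the lines are always alb-SREBP-1a∆P minus alb-SREBP-1a, so that lower between the lines means lower in alb-SREBP-1a∆P. Values are log2 signals after the RMA procedure, differences are log2 differences ± standard error, and a gene rose or fell where its p from limma, adjusted over all 35556 probe sets by Benjamini-Hochberg, was under 0.05.

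Liver sinusoidal endothelial cells line the capillaries of the liver lobule. They have open pores without a diaphragm and no ordinary basement membrane, and they clear waste molecules from the blood through scavenger, lectin and Fc receptors. Their identity depends on signals from neighbouring cells, among them VEGF from hepatocytes and BMP ligands from stellate cells, and in chronic liver disease they can take on features of ordinary capillaries.

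All 10 markers were measured in the brighter part of the array, in bands 7 to 10 when all probe sets were ranked by mean level and cut into 10 bands of equal size. The array records RNA of whole liver, in which fewer endothelial cells and less RNA per endothelial cell cannot be told apart. Several of the markers are made elsewhere too: LYVE-1, stabilin-1 and the Fc receptor are also known from macrophages, and PECAM-1, TIE2 and endoglin from vessels in general.

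The promoter windows of 7 markers were held in the RefSeq table used here (GRCm38.p6), namely Stab1, Stab2, Clec4g, Fcgr2b, Kdr, Tek and Eng. Lyve1, Pecam1 and Oit3 had no entry. The 250 bases before the start of Eng, Tek and Clec4g are shown because these 3 genes carried the clearest differences described below. Sequences run 5′ to 3′ on the strand of the gene, and capitals mark the motifs searched for on either strand.
Eng, chr2:32646345-32646594, plus strand: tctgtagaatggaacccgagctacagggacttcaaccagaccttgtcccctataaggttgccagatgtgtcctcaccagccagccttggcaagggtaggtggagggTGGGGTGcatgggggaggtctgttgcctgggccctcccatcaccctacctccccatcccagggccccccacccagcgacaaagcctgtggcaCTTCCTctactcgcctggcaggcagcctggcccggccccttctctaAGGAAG
Tek, chr4:94739039-94739288, plus strand: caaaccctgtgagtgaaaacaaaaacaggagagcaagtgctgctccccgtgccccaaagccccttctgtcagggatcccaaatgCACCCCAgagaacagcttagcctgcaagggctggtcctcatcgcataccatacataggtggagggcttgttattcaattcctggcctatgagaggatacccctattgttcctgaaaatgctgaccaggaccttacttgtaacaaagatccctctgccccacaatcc
Clec4g, chr8:3720652-3720901, minus strand: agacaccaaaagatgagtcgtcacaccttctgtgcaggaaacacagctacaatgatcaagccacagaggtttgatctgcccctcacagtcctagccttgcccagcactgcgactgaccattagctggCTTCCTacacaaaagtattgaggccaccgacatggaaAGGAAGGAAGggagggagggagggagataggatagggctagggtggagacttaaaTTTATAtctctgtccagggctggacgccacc

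The letters CACCCCA, the core of a sterol regulatory element to which SREBP proteins bind, were found in the windows of Fcgr2b, Tek and Eng, which makes 3 of 7 marker windows against 6.68% of 32851 promoter windows of the same length. AGGAAG, a core of ETS factor sites, stood in 4 of 7 (Stab1, Stab2, Clec4g and Eng) against 29.5%, and TATAAA, the TATA box, in 1 of 7 (Clec4g) against 12.4%. The GATA factor motif AGATAA was in 0 of 7 and in 9.99% of all windows. The forkhead factor motif TGTTTAC was in 0 of 7 and in 3.17%, and the E-box letters CACGTG in 0 of 7 and in 6.02%. None of these motifs contains another, and a match is a description of sequence only.

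In alb-SREBP-1a liver 9 of 10 markers had means above C57Bl6, and for Eng and Stab2 the difference passed the test. The median difference of the 10 markers was 0.20, with a range from −0.27 (Clec4g) to 0.40 (Eng), beside 0.01 for all probe sets. Of the 10 markers 2 rose, 0 fell and 8 did not pass. Over the whole array 10.8% of probe sets passed in this comparison, 6.77% as higher and 3.98% as lower. In alb-SREBP-1a∆P against C57Bl6, where 47.2% of all probe sets passed (27.0% higher, 20.2% lower), 3 markers fell (Clec4g, Tek and Fcgr2b), 0 rose and 7 did not pass, and the median was −0.14 beside 0.11 for all probe sets. This depended on the scaling of the arrays: 1 fell and 3 rose after quantile normalization (median 0.01), and 1 fell and 4 rose after cyclic loess (median 0.11). Between the lines, 44.2% of probe sets passed (22.8% higher, 21.4% lower). There 7 markers were lower, 0 were higher and 3 did not pass, with a median of −0.29 beside 0.08, but after quantile normalization or cyclic loess of the arrays 1 was lower in each case. Groups that did not overlap on any array were found for 1 marker, Eng, as higher in alb-SREBP-1a and as lower between the lines. Over all probe sets such groups made up 3.07% in the first comparison (2.03% higher, 1.03% lower), 11.8% in the second (5.34% higher, 6.47% lower) and 5.95% between the lines (1.88% higher, 4.06% lower). The 3 comparisons share arrays, so their results are not independent of each other.

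**Figure D1:**
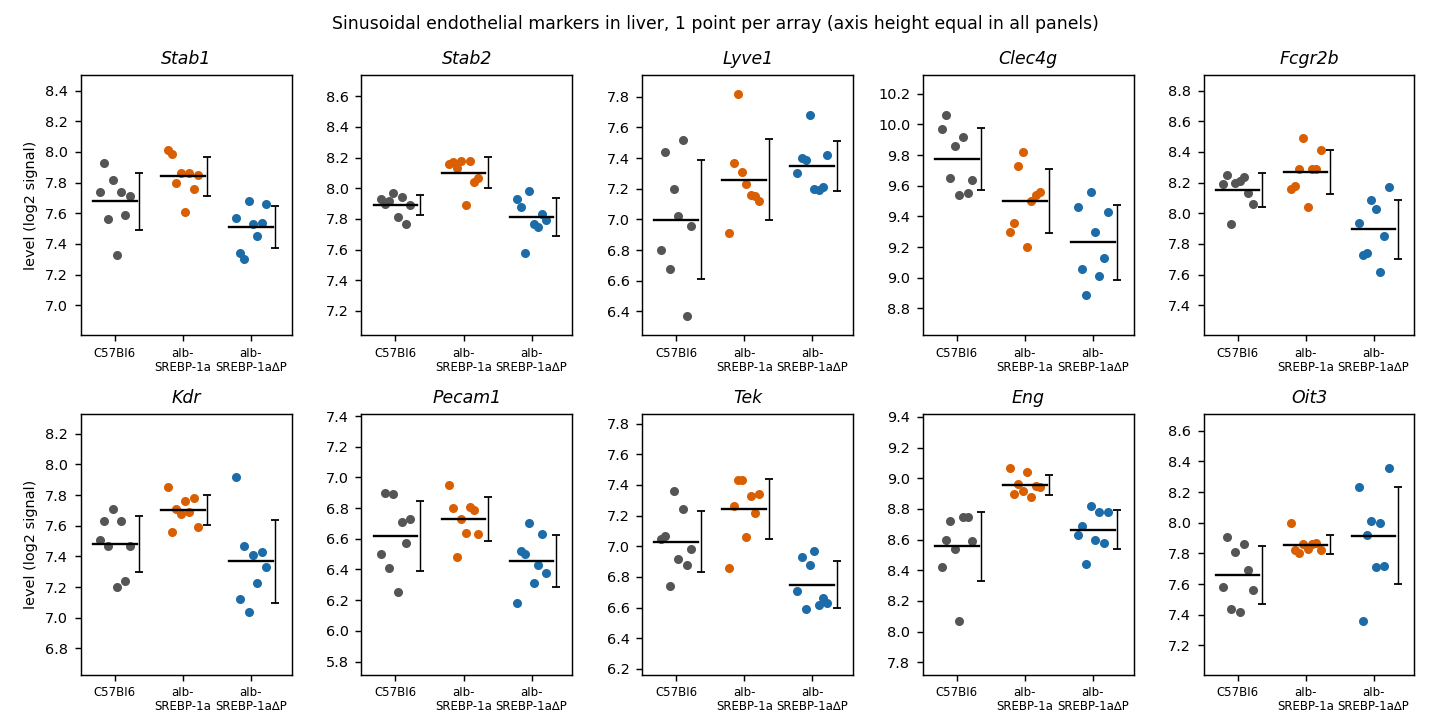
Level of each marker (log2 signal) on every array, by genotype. Points are arrays, the horizontal line is the mean and the bar beside it ± 1 SD over 8 arrays. All 8 alb-SREBP-1a points of Eng lie above every C57Bl6 and every alb-SREBP-1a∆P point, and in the other 9 panels the groups overlap.

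Eng encodes endoglin, an endothelial co-receptor for BMP9 and TGF-beta. Its level ran from 8.07 over a median of 8.59 to 8.75 in C57Bl6, from 8.88 over 8.94 to 9.07 in alb-SREBP-1a and from 8.44 over 8.66 to 8.82 in alb-SREBP-1a∆P. All 8 alb-SREBP-1a arrays were above every C57Bl6 array and above every alb-SREBP-1a∆P array. Eng was higher in alb-SREBP-1a than in C57Bl6 by 0.40 ± 0.09 (1.32-fold, limma, adjusted p = 0.00566). Between the lines its difference was −0.29 ± 0.07 (limma, adjusted p = 0.00284). The 2 lower genotypes in the order, C57Bl6 and then alb-SREBP-1a∆P, differed by 0.11 ± 0.10 (limma, adjusted p = 0.351), a value that passed after quantile normalization (0.30) and cyclic loess (0.37).

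Kdr and Tek encode VEGFR2 and TIE2, the receptors for VEGF-A and the angiopoietins. Tek levels ran from 6.74 over a median of 7.01 to 7.36 in C57Bl6, from 6.86 over 7.29 to 7.43 in alb-SREBP-1a and from 6.59 over 6.69 to 6.97 in alb-SREBP-1a∆P. The alb-SREBP-1a∆P arrays formed the lower end, with 5 of 8 below every C57Bl6 array and 5 of 8 below every alb-SREBP-1a array. Tek was lower between the lines (−0.49 ± 0.09, 1.41-fold, limma, adjusted p = 0.000853) and lower against C57Bl6 (−0.28 ± 0.09, adjusted p = 0.0216). Between alb-SREBP-1a and C57Bl6 the difference was 0.21 ± 0.10 (adjusted p = 0.191), so the 2 upper genotypes in the order were not separated by the test.
Kdr lay between 7.20 and 7.71 in C57Bl6 (median 7.49), between 7.56 and 7.85 in alb-SREBP-1a (median 7.70) and between 7.04 and 7.92 in alb-SREBP-1a∆P (median 7.37). The highest and the lowest of all 24 values were both in alb-SREBP-1a∆P, where 7 of 8 arrays were below and 1 above every alb-SREBP-1a array. Kdr was lower between the lines (−0.33 ± 0.10, limma, adjusted p = 0.0171), while the differences from C57Bl6 were 0.22 ± 0.08 for alb-SREBP-1a (adjusted p = 0.0843) and −0.11 ± 0.12 for alb-SREBP-1a∆P (adjusted p = 0.433).

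The scavenger receptors moved less evenly. Stab2 encodes stabilin-2, the main endocytic receptor for hyaluronan in the sinusoid. Its level ran from 7.77 over a median of 7.91 to 7.97 in C57Bl6, from 7.89 over 8.15 to 8.18 in alb-SREBP-1a and from 7.58 over 7.81 to 7.98 in alb-SREBP-1a∆P. In alb-SREBP-1a 7 of 8 arrays were above every C57Bl6 array, and Stab2 rose by 0.21 ± 0.06 (limma, adjusted p = 0.0253). That call was lost when alb-SREBP-1a replicates 1 and 2 were left out together (0.19 ± 0.06, adjusted p = 0.0806) and with median centring (0.22, adjusted p = 0.0515). No label sets replicates 1 and 2 apart from the other arrays, and without them the test rests on fewer mice. Between the lines Stab2 was lower (−0.29 ± 0.07, adjusted p = 0.00401), and against C57Bl6 the alb-SREBP-1a∆P difference was −0.08 ± 0.07 (adjusted p = 0.349).
Stab1, for stabilin-1, which takes up acetylated LDL and matrix fragments, had medians of 7.72 in C57Bl6 (7.33 to 7.93), 7.86 in alb-SREBP-1a (7.61 to 8.01) and 7.54 in alb-SREBP-1a∆P (7.30 to 7.68). It passed the test only between the lines, with 6 of 8 alb-SREBP-1a∆P arrays below every alb-SREBP-1a array (−0.33 ± 0.08, limma, adjusted p = 0.00291). The differences from C57Bl6 were 0.17 ± 0.08 (adjusted p = 0.232) and −0.17 ± 0.09 (adjusted p = 0.124).
Lyve1, for the hyaluronan receptor LYVE-1, had the widest spread in C57Bl6 of the 10 markers (SD 0.39 over 8 arrays). Its levels ran from 6.37 over a median of 6.99 to 7.52 in C57Bl6, from 6.91 over 7.19 to 7.82 in alb-SREBP-1a and from 7.19 over 7.35 to 7.68 in alb-SREBP-1a∆P. The 3 ranges overlapped, and no comparison passed: 0.26 ± 0.16 (limma, adjusted p = 0.327), 0.35 ± 0.14 (adjusted p = 0.0515) and, between the lines, 0.09 ± 0.11 (adjusted p = 0.517). In alb-SREBP-1a∆P against C57Bl6, Lyve1 was higher and passed in 7 of 11 other settings, quantile normalization and cyclic loess among them, with adjusted p down to 0.00399. Between the lines it passed as higher after cyclic loess (0.33).

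Clec4g ran against the other markers in alb-SREBP-1a. It encodes LSECtin, a C-type lectin of the sinusoid. Its level was 9.54 to 10.06 in C57Bl6 (median 9.75), 9.20 to 9.82 in alb-SREBP-1a (median 9.52) and 8.89 to 9.56 in alb-SREBP-1a∆P (median 9.22). In alb-SREBP-1a∆P 7 of 8 arrays were below every C57Bl6 array, and Clec4g fell by 0.54 ± 0.11 (1.46-fold, limma, adjusted p = 0.000868). The alb-SREBP-1a values lay in the middle, with −0.27 ± 0.10 against C57Bl6 (adjusted p = 0.102), which passed after quantile normalization (adjusted p = 0.0478), and with −0.27 ± 0.11 between the lines (adjusted p = 0.0604). This last difference passed in 7 of 12 other settings and without any of 4 single arrays, while after quantile normalization it was −0.11 and after cyclic loess −0.03.
The second Clec4g probe set was dim (band 3, means of 4.57 in C57Bl6, 4.66 in the first line and 4.84 in the second) and pointed the other way, at 0.27 ± 0.11 for alb-SREBP-1a∆P against C57Bl6 (limma, adjusted p = 0.0530). The median difference of all probe sets of band 3 in that comparison was also 0.27. With the mean of both probe sets the difference was −0.14 and did not pass (adjusted p = 0.204).
Fcgr2b encodes the inhibitory IgG receptor Fc gamma RIIb, which takes up small immune complexes in the sinusoid. Its level was 7.93 to 8.25 in C57Bl6 (median 8.19), 8.04 to 8.49 in alb-SREBP-1a (median 8.29) and 7.62 to 8.17 in alb-SREBP-1a∆P (median 7.90). The alb-SREBP-1a∆P arrays were lowest, with 6 of 8 below every alb-SREBP-1a array and 4 of 8 below every C57Bl6 array. Fcgr2b was lower between the lines (−0.37 ± 0.09, limma, adjusted p = 0.00414) and against C57Bl6 (−0.26 ± 0.09, adjusted p = 0.0220), and the 2 upper genotypes differed by 0.12 ± 0.07 (adjusted p = 0.341).

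Pecam1, for the junction and adhesion protein PECAM-1, had medians of 6.64 in C57Bl6 (6.25 to 6.90), 6.76 in alb-SREBP-1a (6.48 to 6.95) and 6.47 in alb-SREBP-1a∆P (6.18 to 6.70). Between the lines it was lower (−0.27 ± 0.09, limma, adjusted p = 0.0172), with 4 of 8 arrays below every alb-SREBP-1a array. Without alb-SREBP-1a replicates 1 and 2 this call was lost (−0.22 ± 0.09, adjusted p = 0.0641). The differences from C57Bl6 were 0.11 ± 0.10 (adjusted p = 0.521) and −0.16 ± 0.10 (adjusted p = 0.206).
Oit3, for a zona pellucida domain protein found in sinusoidal endothelium, had medians of 7.64 in C57Bl6 (7.42 to 7.91), 7.85 in alb-SREBP-1a (7.80 to 8.0) and 7.96 in alb-SREBP-1a∆P (7.36 to 8.36). Its alb-SREBP-1a arrays lay within a narrow band inside the wide alb-SREBP-1a∆P range. None of its differences passed: 0.20 ± 0.08 (limma, adjusted p = 0.113), 0.25 ± 0.13 (adjusted p = 0.108) and 0.06 ± 0.11 between the lines (adjusted p = 0.699).

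As deposited, the order of the genotype means was the same for 6 markers, Stab1, Stab2, Fcgr2b, Kdr, Pecam1 and Tek, with alb-SREBP-1a∆P lowest and alb-SREBP-1a highest, but for 4 of them alb-SREBP-1a∆P was no longer below C57Bl6 after cyclic loess (Stab1 0.08, Stab2 0.18, Fcgr2b 0.01 and Kdr 0.13). Eng had C57Bl6 lowest and alb-SREBP-1a highest, Lyve1 and Oit3 had C57Bl6 lowest and alb-SREBP-1a∆P highest, and Clec4g had alb-SREBP-1a∆P lowest and C57Bl6 highest. Averaged over the 10 markers, the deviation of an array from the C57Bl6 mean ran from −0.21 to 0.18 among C57Bl6 arrays, from 0.05 to 0.25 in alb-SREBP-1a and from −0.20 to 0.06 in alb-SREBP-1a∆P. As deposited, none of the 10 markers reached the methods' threshold of 1.5-fold in any comparison. With median centring Clec4g did so against C57Bl6 (1.64-fold lower) and Tek between the lines (1.58-fold lower).

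**Figure D2:**
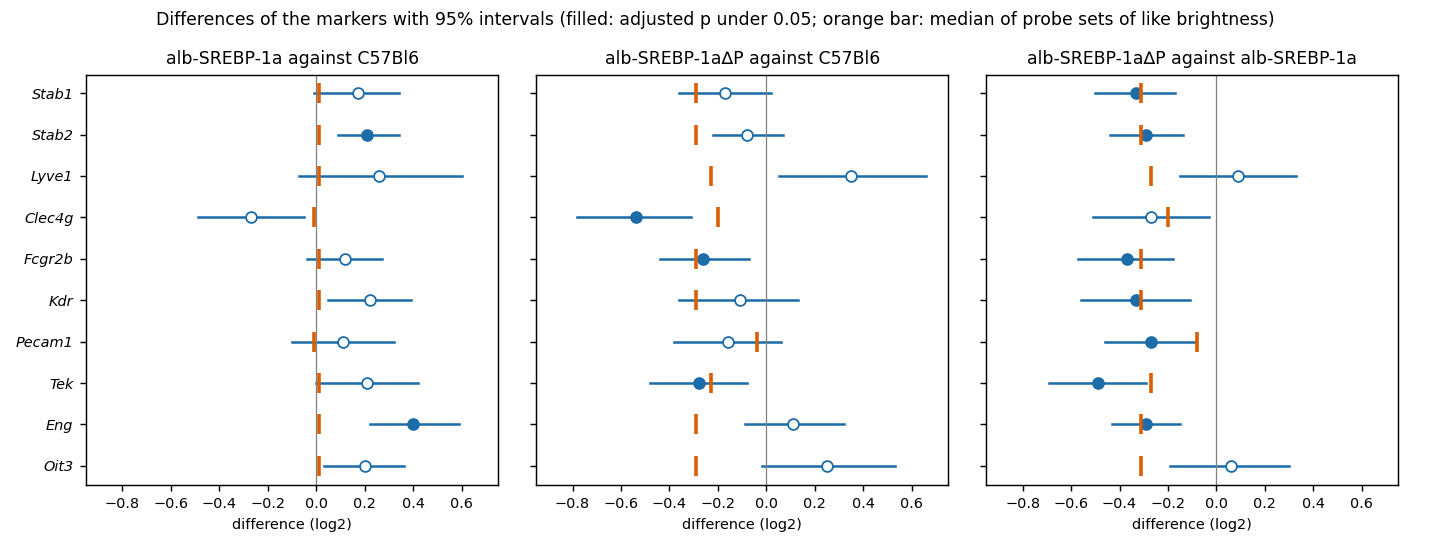
Difference of each marker (log2, x axis) in the 3 comparisons, with 95% intervals. Filled points passed the test, and the orange bar is the median difference of all probe sets in the same brightness band. Between the lines the points of Stab1 (−0.33), Stab2 (−0.29), Kdr (−0.33) and Eng (−0.29) lie close to their bar (−0.31), Tek (−0.49) lies below its bar (−0.27) and Pecam1 (−0.27) below its own (−0.08), and Lyve1 and Oit3 lie above theirs. The position of the bars and of most points in the comparisons with alb-SREBP-1a∆P depends on the scaling of the arrays.

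The differences of alb-SREBP-1a∆P followed the brightness of probe sets, and the markers are bright. In band 9 of the 10, which holds Stab1, Stab2, Fcgr2b, Kdr, Eng and Oit3, the median difference between the lines was −0.31 and 62.3% of 3556 probe sets were called lower, whereas in band 3 the median was 0.28 and 1.80% were called lower. Against C57Bl6 band 9 had a median of −0.29 with 53.3% lower. The SD of the log2 values of an array was 2.02 to 2.09 in alb-SREBP-1a∆P, 2.14 to 2.23 in alb-SREBP-1a and 2.18 to 2.25 in C57Bl6, and the array median was 5.69 to 5.81, 5.54 to 5.65 and 5.55 to 5.65. The 7 of 10 markers lower between the lines stand beside shares of 29.3%, 51.6%, 62.3% and 46.1% lower among all probe sets of bands 7, 8, 9 and 10, and the 3 of 10 lower against C57Bl6 beside 28.5%, 46.1%, 53.3% and 47.2%. In alb-SREBP-1a against C57Bl6 the medians of all bands lay between −0.03 and 0.13, and that of band 9 was 0.01.

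The scaling of the arrays decided most alb-SREBP-1a∆P calls. After quantile normalization 1 marker was lower between the lines, and after cyclic loess also 1, in both cases Tek (−0.37 and −0.28). With median centring 8 were lower. Tek kept its direction and its call between the lines in every setting tried, with differences from −0.66 to −0.28 and adjusted p from 0.000159 to 0.0224 (limma and the methods' test). The difference of Eng between the lines was −0.08 after quantile normalization and −0.01 after cyclic loess, neither of which passed. Against C57Bl6, Clec4g stayed lower in alb-SREBP-1a∆P under all 4 scalings (−0.54 as deposited, −0.40, −0.71 and −0.30 with quantile, median centring and loess), whereas Tek and Fcgr2b did not pass after quantile normalization (−0.20 and −0.08) or cyclic loess (−0.09 and 0.01). Under cyclic loess 4 markers were higher than in C57Bl6: Lyve1 (0.57), Oit3 (0.51), Eng (0.37) and Stab2 (0.18). The rise of Eng in alb-SREBP-1a was 0.38 to 0.41 under all 4 scalings and passed in each, and in every other setting tried it ranged from 0.33 to 0.43.

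**Figure D3:**
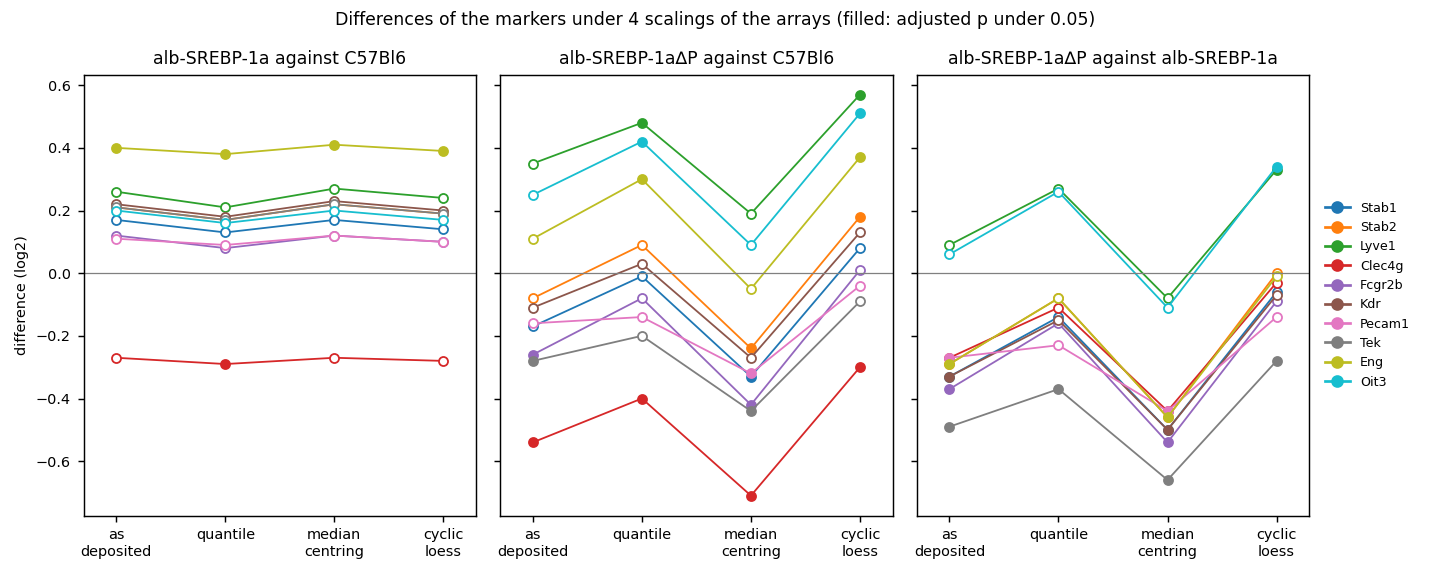
Difference of each marker (log2, y axis) as deposited and after quantile normalization, median centring and cyclic loess of the arrays (x axis). Filled points passed the test. The lines are nearly flat in alb-SREBP-1a against C57Bl6, while in both alb-SREBP-1a∆P comparisons the markers shift together from scaling to scaling and several cross 0, such as Stab2 against C57Bl6 (−0.24 with median centring, 0.18 with cyclic loess).

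Within a genotype the markers varied together from mouse to mouse. Over 24 arrays, with the genotype mean removed, 40 of 45 marker pairs had a Pearson correlation above 0, with a median of 0.27 and a range from −0.08 to 0.79. The strongest pair was Clec4g and Fcgr2b at 0.79, and Stab1, Stab2 and Clec4g correlated with each other at 0.63. Against the mean of the other 9 markers, Stab1 (0.80) and Clec4g (0.79) stood highest, and Kdr (0.22) and Eng (0.24) lowest. Arrays share features beyond endothelium: the mean of the standardised markers correlated with the array median at −0.76 and with the array SD at 0.32 (24 arrays), and the part of these in the correlation was not tested.

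**Figure D4:**
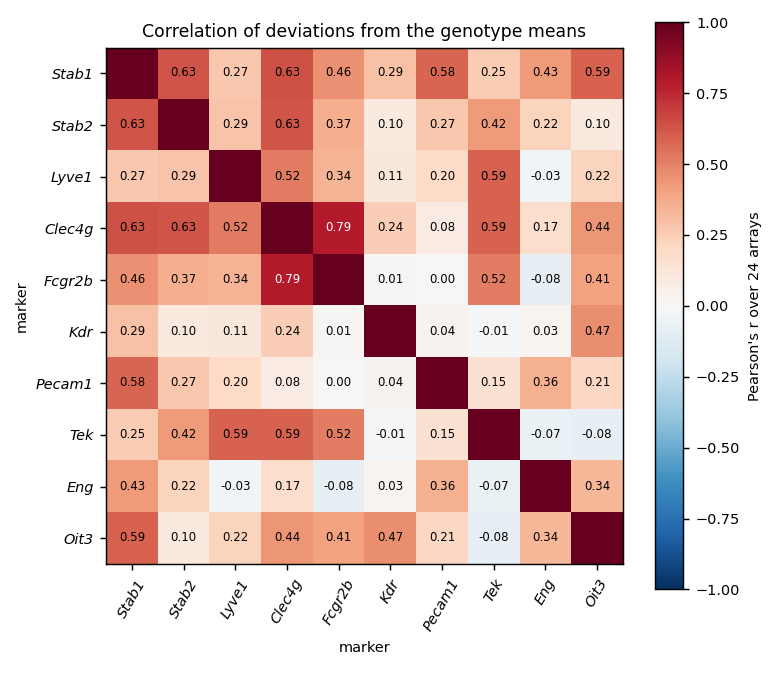
Pearson correlation between markers (both axes) over 24 arrays after removal of the genotype means. Red is positive and blue negative, and each cell gives its value. Clec4g and Fcgr2b reach 0.79, while the highest values of Kdr are those with Oit3 (0.47) and Stab1 (0.29).

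The 10 genes most like the marker mean were Pik3ca (0.89), Blmh (0.87), Amt (0.87), Dnase2b (0.87), Rapgef2 (0.87), Ropn1l (0.87), Sgk3 (0.87), Jak1 (0.86), Apc (0.85) and Gtf2h1 (0.85), by the same correlation over 24 arrays. None of them is in the endothelial lists used here. Among all 19938 genes the median correlation with the marker mean was 0.01, and 12.8% exceeded 0.5. Of 12 other sinusoidal genes 7 exceeded 0.5, as did 8 of 23 genes of endothelium in general, 7 of 11 junction and adhesion genes, 7 of 21 BMP and TGF-beta genes, 4 of 11 stellate cell markers, 2 of 9 hepatocyte markers and 1 of 11 Kupffer cell markers. Other endothelial lists had 1 of 8 (capillaries and large vessels), 1 of 7 (central side), 1 of 6 (portal side) and 0 of 3 (lymphatic). The 12.8% covers genes of every brightness band.

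Some other genes of the sinusoid differed by more than the 10 markers did. Of 12 such genes 4 rose and 1 fell in alb-SREBP-1a against C57Bl6, with a median of 0.26. Gpr182, an atypical chemokine receptor of sinusoidal endothelium, rose by 0.84 ± 0.10 (limma, adjusted p = 2.96e-05), with every alb-SREBP-1a array above every C57Bl6 array. Dnase1l3, a secreted DNase, rose by 0.67 ± 0.12 (adjusted p = 0.00169), again without overlap, and the transcription factor Maf by 0.36 ± 0.07 (adjusted p = 0.00307). The lysosomal protease Ctsl, with a mean of 11.42 in C57Bl6, fell by 0.58 ± 0.11 (adjusted p = 0.00275). Which liver cells the RNA of these genes came from was not tested. All 4 calls were kept under the 4 scalings.
In alb-SREBP-1a∆P against C57Bl6, 1 of the 12 rose and 4 fell (median −0.10, but 0.07 with 4 higher and 1 lower after cyclic loess). Gpr182 was higher by 0.56 ± 0.11 (adjusted p = 0.000807) and Ctsl lower by a difference of −0.71 ± 0.12 (adjusted p = 0.000134), both under all 4 scalings. Ehd3 (−0.34 ± 0.07) and the mannose receptor Mrc1 (−0.42 ± 0.14) were lower as deposited but did not pass after cyclic loess (−0.09 and −0.16).
Between the lines 9 of 12 were lower and 0 higher (median −0.37), with 3 lower after quantile normalization and 2 after cyclic loess. All 12 lay in bands 7 to 10. As deposited, 29.3% to 62.3% of all probe sets per band there were lower between the lines, and 28.5% to 53.3% against C57Bl6. Clec1b, the platelet-type lectin CLEC-2 (−0.64 ± 0.11, adjusted p = 0.000531), and the endothelin receptor Ednrb (−0.50 ± 0.08, adjusted p = 0.000339) were lower under all 4 scalings.

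Among 23 genes of endothelium in general 3 rose and 0 fell in alb-SREBP-1a (median 0.16). They were Cdh5, the adherens junction cadherin of endothelium (0.39 ± 0.07, limma, adjusted p = 0.000888), Robo4, a guidance receptor (0.28 ± 0.07, adjusted p = 0.0110), and Myct1 (0.45 ± 0.13, adjusted p = 0.0297). In alb-SREBP-1a∆P 2 rose and 3 fell (median −0.05, 0.05 after cyclic loess), among them Cdh5 at 0.26 ± 0.07, which did not pass with median centring (0.10), and the lipid receptor S1pr1 at −0.55 ± 0.10, which did not pass with cyclic loess (−0.29). After cyclic loess 5 rose and 1 fell. Between the lines 8 were lower and 0 higher (median −0.14). Of the 23 genes 19 lay in bands 7 to 10, where 29.3% to 62.3% of all probe sets per band were lower in this comparison. S1pr1 (−0.69 ± 0.14), Myct1 (−0.55 ± 0.09) and the sialomucin Emcn (−0.53 ± 0.14) passed under all 4 scalings, and 3 of the 23 were lower after cyclic loess.

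Genes of ordinary capillaries and large vessels were dimmer than the markers, with 5 of 8 in bands 4 to 6, where 24.0% to 37.1% of all probe sets were called higher in alb-SREBP-1a∆P against C57Bl6. Of 8 measured, 2 rose and 0 fell in alb-SREBP-1a, and 5 rose and 1 fell in alb-SREBP-1a∆P against C57Bl6 (median 0.31). Under the other scalings the median was 0.15 to 0.24, with 3 higher and 2 lower (quantile), 2 and 2 (median centring) or 4 and 2 (cyclic loess). Between the lines 2 were higher and 1 lower. Plvap, the protein of pore diaphragms, rose in both lines, by 0.66 ± 0.11 in alb-SREBP-1a (limma, adjusted p = 0.000673) and by 0.48 ± 0.10 in the other line (adjusted p = 0.00107). Sele, for E-selectin, rose in alb-SREBP-1a∆P by 0.72 ± 0.09 (adjusted p = 7.27e-06), with no overlap with either of the other groups, while in alb-SREBP-1a its difference was 0.12 ± 0.09 (adjusted p = 0.416). Cd34 was lower in alb-SREBP-1a∆P (−0.43 ± 0.12, adjusted p = 0.00947). These calls of Plvap, Sele and Cd34 were kept under all 4 scalings.
Zonal genes were listed by side of the lobule. The 7 central-side genes lay in bands 6 and 7, where 24.0% and 16.7% of all probe sets were higher in alb-SREBP-1a∆P against C57Bl6. The 6 portal-side genes lay in bands 6 to 9, where 3.80% to 13.3% of all probe sets per band were higher in alb-SREBP-1a. Bands 7 to 10, where 29.3% to 62.3% were lower between the lines, held 5 of these 6. Of 7 endothelial genes of the central side, 0 passed in alb-SREBP-1a, 2 rose in alb-SREBP-1a∆P against C57Bl6 (0 with median centring) and 1 was higher between the lines. This was Wnt9b, a ligand that central endothelium sends to hepatocytes, by 0.52 ± 0.08 (adjusted p = 0.000257), without overlap and under all 4 scalings. Of 6 genes of the portal side, 2 rose in alb-SREBP-1a (Ltbp4 0.33 ± 0.09 and the scavenger receptor Msr1 0.29 ± 0.09, the second lost under each of the other 3 scalings), 0 passed in alb-SREBP-1a∆P against C57Bl6 and 3 were lower between the lines (0 after quantile normalization or cyclic loess).

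The ligands and partners of the 10 markers were listed by receptor. For Kdr and Tek, 12 VEGF and angiopoietin genes were measured, of which 1 rose in alb-SREBP-1a, 1 fell in alb-SREBP-1a∆P against C57Bl6 (7 with median centring) and 5 were lower between the lines (2 with cyclic loess, which gave 1 higher). Bands 7 to 10, where 29.3% to 62.3% of all probe sets per band were lower between the lines, held 7 of the 12. Nrp2, a co-receptor for VEGF-C, gave 0.34 ± 0.07 in alb-SREBP-1a (limma, adjusted p = 0.00558) and −0.43 ± 0.10 between the lines (adjusted p = 0.00224), both kept under all 4 scalings. Vegfa itself differed from C57Bl6 by 0.01 ± 0.06 in alb-SREBP-1a (adjusted p = 0.921) and by −0.16 ± 0.07 in the other line (adjusted p = 0.0800), which with median centring was −0.32 and passed. Ptprb, the phosphatase that acts on TIE2, was lower between the lines (−0.38 ± 0.06, adjusted p = 0.000415), but not after quantile normalization (−0.16) or cyclic loess (−0.10).
Around endoglin 21 BMP and TGF-beta genes were measured. In alb-SREBP-1a 5 rose and 2 fell, in alb-SREBP-1a∆P 3 rose and 8 fell against C57Bl6, and between the lines 10 were lower and 0 higher. After cyclic loess the counts for alb-SREBP-1a∆P were 4 higher and 4 lower against C57Bl6, and 1 higher and 3 lower between the lines. Of the 21 genes 19 lay in bands 7 to 10. As deposited, 28.5% to 53.3% of all probe sets per band there were lower against C57Bl6, and 29.3% to 62.3% between the lines. Tgfb1 rose by 0.61 ± 0.10 in the first line and by 0.43 ± 0.12 in the second (limma, adjusted p = 0.000882 and 0.00725), with the second call lost under median centring (0.27). Bmp4 rose by 0.48 ± 0.08 and 0.40 ± 0.08, and Hamp, the hepcidin gene that BMP signals induce in hepatocytes, by 0.55 ± 0.10 and 0.44 ± 0.11. The BMP target Id3 fell by 0.96 ± 0.10 in alb-SREBP-1a∆P (adjusted p = 2.64e-06), and the receptor Acvr2a by 0.60 ± 0.11 (adjusted p = 0.000302). Smad9 (−0.67 ± 0.12) and Tgfbr1 (−0.57 ± 0.10) were lower between the lines. Apart from that of Tgfb1 these calls were kept under all 4 scalings. In alb-SREBP-1a against C57Bl6 the BMP target Id1 went the other way from Hamp, with a difference of −0.46 ± 0.11 (limma, adjusted p = 0.0104). The endoglin partner Acvrl1, or ALK1, named after its values were seen, differed by 0.10 ± 0.07, 0.09 ± 0.09 and 0.00 ± 0.09 in the 3 comparisons and passed in none.

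Markers of other liver cells moved as well. Of 11 Kupffer cell markers 8 rose in alb-SREBP-1a (median 0.48), 7 rose in alb-SREBP-1a∆P against C57Bl6 (median 0.30, 3 with median centring) and 4 were lower between the lines (median −0.21, but 0.01 after cyclic loess, with 0 lower, as after quantile normalization). Bands 7 to 10 held 10 of these 11 markers. As deposited, 10.5% to 16.7% of all probe sets per band there were higher in alb-SREBP-1a∆P against C57Bl6, and 29.3% to 62.3% were lower between the lines. C1qc, a complement subunit of macrophages, rose by 1.17 ± 0.11 and 1.12 ± 0.11 in the 2 lines (limma, adjusted p = 3.40e-06 and 1.39e-06). The mean level of the 11 markers ran from 7.31 to 7.77 on C57Bl6 arrays, from 7.83 to 8.40 in alb-SREBP-1a and from 7.74 to 8.31 in alb-SREBP-1a∆P, so that in alb-SREBP-1a it was above C57Bl6 on every array, as Eng was. Its part in the differences of the endothelial markers was not tested.
Of 9 hepatocyte markers 3 fell in alb-SREBP-1a, 7 fell in alb-SREBP-1a∆P against C57Bl6 (5 after quantile normalization, 4 after cyclic loess) and 0 passed between the lines (7 lower with median centring). The mean level was 13.14 to 13.35 in C57Bl6, 12.96 to 13.16 in alb-SREBP-1a and 12.90 to 13.04 in the other line. These 9 hepatocyte markers all lay in band 10. As deposited, 47.2% of all probe sets of that band were lower for alb-SREBP-1a∆P against C57Bl6. The share was 14.5% for alb-SREBP-1a against C57Bl6 and 46.1% between the lines. Of 11 stellate cell markers 1 fell in alb-SREBP-1a and 4 fell in alb-SREBP-1a∆P, and between the lines 1 was higher and 6 lower. After cyclic loess 3 rose and 1 fell in alb-SREBP-1a∆P, and 2 were higher and 1 lower between the lines. The mean stellate level was 7.36 to 7.59 in C57Bl6, 7.45 to 7.59 in alb-SREBP-1a and 7.28 to 7.47 in the other line. Of the 11 stellate markers 10 lay in bands 7 to 10. As deposited, 28.5% to 53.3% of all probe sets per band there were lower in alb-SREBP-1a∆P against C57Bl6, and 29.3% to 62.3% between the lines. Of 3 lymphatic endothelial genes, which could share Lyve1, 0 passed in alb-SREBP-1a and 1, Prox1, which hepatocytes also express, fell in alb-SREBP-1a∆P (−0.74 ± 0.16), while between the lines 1 was higher and 1 lower. B cells also carry Fcgr2b. Of 5 B cell markers, as deposited, 0 passed in alb-SREBP-1a and between the lines, and 1 rose in alb-SREBP-1a∆P against C57Bl6. Under each of the other 3 scalings, 1 was higher in alb-SREBP-1a, 0 passed in alb-SREBP-1a∆P against C57Bl6 and 1 was lower between the lines.

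**Figure D5:**
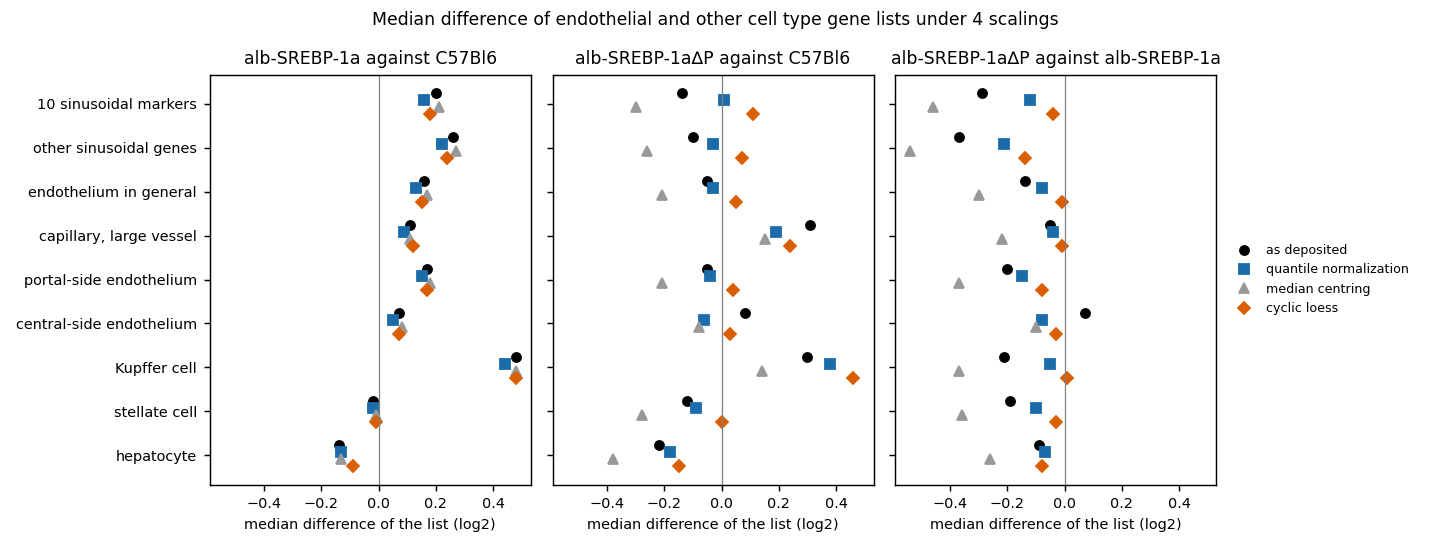
Median difference (log2, x axis) of the 10 markers, of other endothelial gene lists and of Kupffer cell, stellate cell and hepatocyte lists (y axis), under 4 scalings of the arrays (symbols). In alb-SREBP-1a against C57Bl6 the 4 symbols of a list nearly coincide, with the 10 markers at 0.16 to 0.21. In alb-SREBP-1a∆P against C57Bl6 the median of the 10 markers runs from −0.30 to 0.11.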

How the data were processed

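Liver RNA (150 ng per array) of 24 mice was hybridised to Affymetrix Mouse Gene 1.0 ST arrays. Per the labels and the study's methods, the authors ran RMA in Affymetrix Expression Console, and the deposited table holds its log2 signal per probe set and array. Its other settings are not given in those sources. Arrays still differed in median and SD as deposited, so rescaling them moves values. Array annotation gave the gene symbols. Promoters came from RefSeq (GRCm38.p6).

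With limma 3.58.1 (R 4.3.3) the 8 arrays of a genotype were set against the 8 of another, adjusting by Benjamini-Hochberg over all 35556 probe sets, and the fits were tested on simulated data. The simulated arrays had no shared differences in median or SD, so they do not test how such differences affect the calls. A p-value reflects the spread among these mice, whose number limits precision. Other genes were described by 20 lists (177 of 188 genes measured). The members and lists were chosen with earlier results of these data known. Named were the 10 markers, up to 4 genes of each list with the smallest p in a comparison (their values in other comparisons beside them), and the 10 genes most like the markers. Alternatives were other scalings, filters, fits and probe set choices, and leaving out arrays. Figures were drawn with matplotlib 3.10.9 in Python 3.11.15.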

Additional observations from a re-analysis of the deposited data

Results flagged for a closer look

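Among 30 groups of 8 arrays (10 markers in 3 genotypes), 2 held an array set apart from the others by a gap to the nearest array above Dixon's limit, and chance alone sets apart about 1 in 20 groups. Lyve1 in alb-SREBP-1a∆P replicate 4 was 7.68, with the next array at 7.42 and a gap of 0.536 of the range. Oit3 in alb-SREBP-1a replicate 1 was 8.0, with the next at 7.87 and a gap of 0.670. Leaving out either array changed no call of Lyve1 or Oit3.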

How the results depend on the processing

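Of 30 differences (10 markers in 3 comparisons) 8 kept direction and side of the threshold in all settings that left out no single array, and 25 kept both when any 1 array was left out. The cause of the changes below was not tested.

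In alb-SREBP-1a against C57Bl6, 1 marker was lower with quantile normalization (Clec4g), 1 was higher with median centring and without replicates 1 and 2 of alb-SREBP-1a, and 3 were higher without dim probe sets (Kdr as the third). Leaving out 1 array gave 2 to 2 higher, 0 to 0 lower and medians of 0.17 to 0.22. In alb-SREBP-1a∆P against C57Bl6, markers higher numbered 1 with all 24 arrays in 1 fit, without dim probe sets, with a variance trend and with the brightest probe set per gene, 3 with quantile normalization and 4 with cyclic loess. Markers lower numbered 1 with quantile normalization, 6 with median centring and 1 with cyclic loess, where the median turned to 0.11 (0.01 with quantile normalization). Leaving out 1 array gave 0 to 1 higher, 3 to 4 lower and medians of −0.18 to −0.10. The 1 higher was Lyve1 without C57Bl6 replicate 2 or 6 and Oit3 without alb-SREBP-1a∆P replicate 2, and the fourth lower was Stab1 without C57Bl6 replicate 5. Cyclic loess also turned Stab2 to 0.18, Fcgr2b to 0.01, Stab1 to 0.08 and Kdr to 0.13 (0.03 with quantile normalization).

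Between the lines, markers lower numbered 1 with quantile normalization and 1 with cyclic loess, which gave 2 higher (Lyve1 and Oit3). The median was −0.12 with quantile normalization, −0.46 with median centring and −0.04 with cyclic loess. Leaving out 1 array gave 0 to 0 higher, 7 to 8 lower (Clec4g as the eighth, without replicate 1 or 5 of alb-SREBP-1a or replicate 1 or 4 of alb-SREBP-1a∆P) and medians of −0.32 to −0.27. The difference of Oit3 turned from 0.06 to −0.01 without replicate 8 of alb-SREBP-1a∆P. Over all probe sets the share of calls that were higher moved from 57.1% to 40.6%, 31.9% and 51.2% in alb-SREBP-1a∆P against C57Bl6 (quantile, median centring, loess), from 51.6% to 41.1%, 23.9% and 52.2% between the lines and from 63.0% to 51.6%, 66.8% and 56.8% in alb-SREBP-1a. The median of all probe sets shifted by −0.14, −0.16 and −0.11 in alb-SREBP-1a∆P against C57Bl6, and by −0.10, −0.17 and −0.08 between the lines.

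The replicate number as a block gave 1 higher and 3 lower in alb-SREBP-1a∆P against C57Bl6 (Lyve1 as the 1 higher), 2 higher and 0 lower in alb-SREBP-1a, and 7 lower between the lines. Deviations of same-numbered arrays from their genotype means correlated above 0.1 in 2, 1 and 2 of 8 pairs. The medians were 0.05, 0.04 and 0.01, and the highest values 0.28, 0.13 and 0.16. Pairs with different numbers were not set beside them, so these values cannot decide whether the numbers pair the mice.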

Other observations

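Functions around the scavenger and adhesion markers were also listed. Of 13 other scavenger receptors and lectins, 3 rose in alb-SREBP-1a and 8 were lower between the lines (1 after cyclic loess). Of the 13 genes 12 lay in bands 7 to 10, where 29.3% to 62.3% of all probe sets per band were lower between the lines. Colec12, a scavenger collectin of vessels, fell in alb-SREBP-1a∆P against C57Bl6 (−0.60 ± 0.10, limma, adjusted p = 0.000170) and was lower between the lines (−0.51 ± 0.10, adjusted p = 0.000873) under all 4 scalings. Against C57Bl6, 1 of the 13 rose and 4 fell in alb-SREBP-1a∆P (4 rose and 2 fell after cyclic loess). Of 6 Fc receptor genes and partners, 4 rose in alb-SREBP-1a, 4 in the other line against C57Bl6 (1 after quantile normalization or median centring), and 2 were lower between the lines. Bands 7 to 10 held 4 of these 6 genes. Fcer1g, the signalling chain of the activating receptors, rose by 0.84 ± 0.08 and 0.62 ± 0.09 (adjusted p = 5.20e-06 and 4.62e-05), and Fcgr4 by 0.75 ± 0.10 in alb-SREBP-1a (adjusted p = 0.000138), while the inhibitory Fcgr2b did not pass there. Fc receptor genes are alike in sequence, and cross-hybridisation among their probe sets was not tested.

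Of 7 hyaluronan genes, 1 rose in alb-SREBP-1a, 2 rose and 1 fell in alb-SREBP-1a∆P against C57Bl6 and 2 were higher between the lines (0 after quantile normalization). Cd44, a hyaluronan receptor of leukocytes and other cells, rose by 0.40 ± 0.11 in alb-SREBP-1a (limma, adjusted p = 0.0255). Of 11 junction and adhesion genes, 1 rose in alb-SREBP-1a, 3 rose and 3 fell in alb-SREBP-1a∆P against C57Bl6, and 3 were lower between the lines (0 after cyclic loess). Bands 7 to 10, where 29.3% to 62.3% of all probe sets per band were lower between the lines, held 8 of the 11. The integrin subunit Itgav fell in alb-SREBP-1a∆P against C57Bl6 (−0.56 ± 0.11, adjusted p = 0.000756) under all 4 scalings.

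Markers of blood and duct cells were mostly dim, with 6 of 7 neutrophil and 7 of 8 T and NK cell markers and 2 of 4 red blood cell markers in bands 1 to 6, where 24.0% to 43.6% of all probe sets per band were called higher in alb-SREBP-1a∆P against C57Bl6. In that comparison 3 of 7 neutrophil markers rose (0 with median centring, 1 after cyclic loess) and 3 were higher between the lines (1 after cyclic loess), 3 of 8 T and NK cell markers rose in alb-SREBP-1a∆P and 1 in the other line, with 2 higher between the lines (0 higher and 1 lower under each of the other 3 scalings), 2 of 4 red blood cell markers rose in alb-SREBP-1a∆P (0 under each of the other 3 scalings) and 1 was higher between the lines, and 0 of 5 bile duct markers passed in any comparison as deposited.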
